A study of Mus musculus with 44 samples.

Results

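The genes described are 2 metallothioneins (Mt1 and Mt2) and 7 antioxidant enzymes (Gpx1, Gpx3, Gpx4, Hmox1, Sod1, Sod2 and Sod3), 9 of the 15964 genes named on the 3 arrays of the study. The group was chosen by measured values: in GFP-negative cells Mt1 was lower and Gpx3 was higher at day 17 than at day 7. The other 7 genes were added as a further metallothionein and further antioxidant enzymes. Every probe set that names 1 of these genes was taken, which gave 15 of 36701 probe sets, 9 on array A, 4 on B and 2 on C, and each of the 9 genes had 1 on array A.

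RNA came from cultured osteoblasts of the skull cap (calvaria) of newborn mice 7 days old, kept in DMEM with 10% fetal calf serum, and was hybridised to Affymetrix mouse arrays of types A, B and C. Cultures at day 7 carried the pOBCol3.6GFP transgene and had no additions, and cultures at day 17 carried pOBCol2.3GFP and received ascorbic acid and beta-glycerophosphate from day 7 on. Both transgenes place green fluorescent protein (GFP) under a fragment of the type I collagen promoter, so GFP marks cells in which that fragment is active. Day, transgene and additions changed together and cannot be told apart. Each culture gave a GFP-positive, a GFP-negative and an unsorted sample, from 3 experiments at day 7 (Exp99, Exp101 and Exp103) and 3 at day 17 (Exp100, Exp105 and Exp106), so that each of the 6 groups had n = 3. Nothing beyond the experiment names says that these were separate cultures or animals, and p-values then measure the spread between these samples, which may be technical.

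Metallothioneins are small cysteine-rich proteins that bind zinc and copper, and their genes are induced by metals through the factor MTF1, which binds metal response elements, and by glucocorticoids and oxidative stress. Superoxide dismutases turn superoxide into hydrogen peroxide, in the cytosol (Sod1), in mitochondria (Sod2) or outside the cell (Sod3), and glutathione peroxidases then reduce peroxides. Heme oxygenase 1, encoded by Hmox1, breaks down heme, and its gene is a known target of the factor NRF2, which acts through antioxidant response elements. Macrophages, which take up and break down heme, are known for Hmox1.

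The promoters of the genes whose levels moved most are shown because the metallothionein genes are known for metal response elements there. The sequences are from RefSeq (GRCm38.p6), the 250 bases before the start that the RefSeq table lists, 5′ to 3′ on the plus strand, and capitals mark matches to the metal response element core, TGCACNC or TGCGCNC, on either strand. Of the 9 genes, 7 had an entry in the table, and Hmox1 and Sod3 had none. For Mt1 the listed start lies inside the annotated gene (chromosome 8, 94178883 to 94180327), so 206 of the 250 bases shown are within the gene span, while those of Mt2 and Gpx3 lie wholly before the gene.
Mt1 (chr8:94178839-94179088): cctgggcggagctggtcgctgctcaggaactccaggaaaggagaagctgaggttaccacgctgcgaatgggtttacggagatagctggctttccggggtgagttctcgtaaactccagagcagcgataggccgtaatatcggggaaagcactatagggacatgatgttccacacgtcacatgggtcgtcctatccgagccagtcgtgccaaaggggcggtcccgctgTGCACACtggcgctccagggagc
Mt2 (chr8:94172368-94172617): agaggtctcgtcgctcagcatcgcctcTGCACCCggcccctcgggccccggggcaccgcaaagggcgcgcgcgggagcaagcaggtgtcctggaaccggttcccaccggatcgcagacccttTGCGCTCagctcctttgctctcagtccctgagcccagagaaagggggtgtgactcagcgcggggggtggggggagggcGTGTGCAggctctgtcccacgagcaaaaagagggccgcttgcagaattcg
Gpx3 (chr11:54902604-54902853): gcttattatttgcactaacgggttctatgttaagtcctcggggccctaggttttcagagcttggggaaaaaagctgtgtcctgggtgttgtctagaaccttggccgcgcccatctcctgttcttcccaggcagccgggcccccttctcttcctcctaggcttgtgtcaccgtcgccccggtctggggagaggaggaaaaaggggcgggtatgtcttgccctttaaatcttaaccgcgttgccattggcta
Mt1 held 1 match, 23 bases before the start, and Mt2 held 3, the farthest 223 and the nearest 50 bases before it. Of 32851 promoter windows of the same length 21.4% held at least 1 match and 1.26% at least 3. The windows of Gpx1, Gpx3, Gpx4 (4 windows), Sod1 and Sod2 held 0. The antioxidant response element core TGACNNNGC, searched on both strands, matched 1 time in Mt2 and 1 time in Sod1, and was in 10.2% of all windows. The count for Mt1 depends on the window: after the matches in 250 bases and the letters past the listed start had been seen, the window was widened to 280 and to 300 bases, which gave 3 matches in Mt1 and 4 in Mt2 at both lengths. As many as 3 matches were in 1.73% of windows of 280 bases and 1.97% of windows of 300 bases, and as many as 4 in 0.405% and 0.517%. Because the wider windows were chosen with those matches in view, the 250-base count is the one searched first. These are matches of letters and not measured binding sites.

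Values are normalised intensities, on a linear scale after quantile normalization within each array type, and differences are on the scale of log2(intensity + 32) with the standard error (SE) of the fit. For testing, a probe set had to exceed the median of the array in 3 or more samples of the fit. Of the 15 probe sets 12 passed. Those of Hmox1, Sod1 and Sod2 on array B did not, with 1, 0 and 0 of 12 arrays above the median. A difference was called where limma's Benjamini-Hochberg adjusted p, over all probe sets tested, was under 0.05. Sorted RNA of Exp106 stood apart: its arrays correlated at 0.839 on array A with sorted samples of other experiments, against 0.943 among the others. Unsorted samples did not enter these correlations. Calls of single genes that change when Exp106 is left out are given both ways. In these bulk samples fewer cells of a type and less RNA per cell cannot be told apart. Summed intensity of 6 osteoblast markers on array A was 82450 to 217000 in the day 7 samples and 260800 to 373000 in the day 17 samples.

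**Figure D1:**
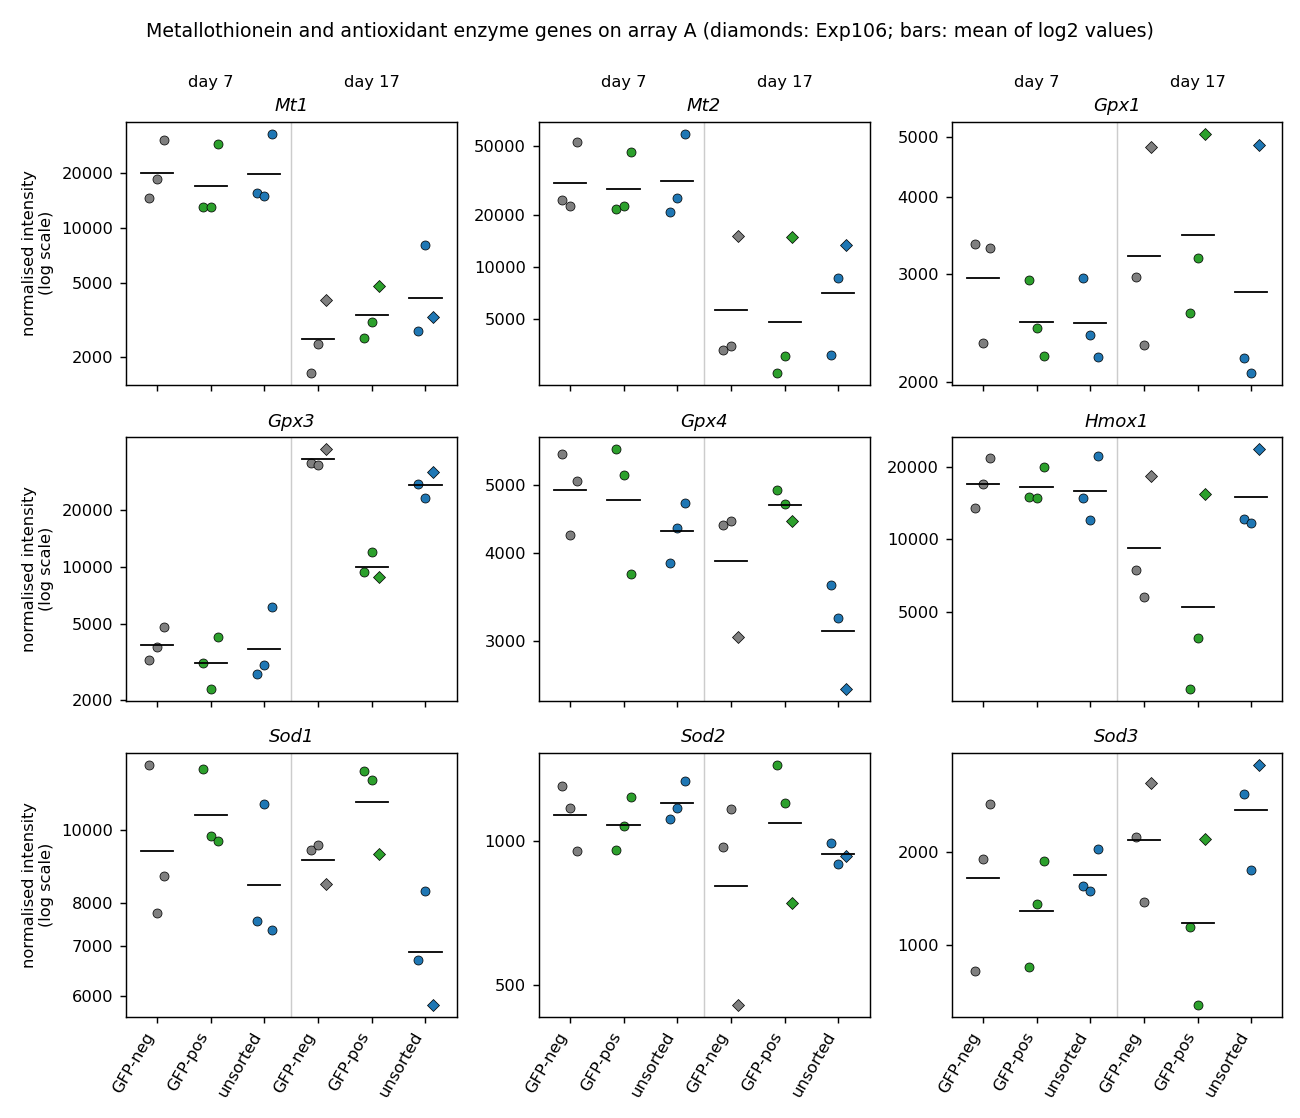
Normalised intensity (vertical axis, log scale) of the 9 genes on array A in each of the 18 samples, by group; points are samples, diamonds are Exp106 and bars are means of the log2 values. Mt1 and Mt2 are lower in every day 17 sample than in any day 7 sample, and Gpx3 is higher in every day 17 sample.

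Mt1 and Mt2 were lower at day 17 than at day 7 in GFP-positive and unsorted cells, but of these only Mt1 passed the test. Values of these samples did not choose Mt1, yet they came from the same experiments as the GFP-negative samples that did. The tests of Mt1 are thus not independent of its choice. In GFP-positive cells Mt1 had intensities of 28480, 13080 and 13080 at day 7 (Exp99, Exp101 and Exp103) and 2531, 3067 and 4842 at day 17 (Exp100, Exp105 and Exp106). The 2 days did not overlap, and Exp99 was the highest of day 7. The log2 difference was -2.33 ± 0.42 (SE, limma adjusted p = 0.0081), a 5.02-fold lower level at day 17. In unsorted cells Mt1 had 32600, 15580 and 14980 at day 7 and 2761, 8102 and 3271 at day 17. Again the days were apart, with Exp105 the highest of day 17, and the difference was -2.22 ± 0.47 (SE, limma adjusted p = 0.0128). This call was lost without unsorted Exp99 (-1.86, adjusted p = 0.0703), Exp100 (-1.93, adjusted p = 0.0549) or Exp106 (-2.05, adjusted p = 0.0548), and in a fit of the compared groups alone (adjusted p = 0.0522). In GFP-negative cells, which chose Mt1, the intensities were 30020, 14500 and 18430 at day 7 and 1624, 2339 and 4035 at day 17, a difference of -2.99 that is given as a description.

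Mt2, the second metallothionein, had intensities of 45900, 21600 and 22540 at day 7 and 2449, 3080 and 14800 at day 17 in GFP-positive cells. Exp106 was the highest day 17 sample and lay below the lowest day 7 sample. The difference was -2.54 ± 0.71 (SE, limma adjusted p = 0.0651) and was not called. Without Exp106 it was -3.34 (adjusted p = 0.00121). In unsorted cells Mt2 had 58660, 20810 and 24930 at day 7 and 3111, 8633 and 13460 at day 17, a difference of -2.13 ± 0.73 (SE, limma adjusted p = 0.107), and without Exp106 it was -2.58 (adjusted p = 0.00549). In GFP-negative cells the difference was -2.43, with 15170 in Exp106 against 3342 and 3528 in the other day 17 samples. Over the 18 samples the log2 values of Mt1 and Mt2 correlated at r = 0.92, and at 0.98 without Exp106 (n = 15), as a description of samples that share the day.

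Gpx3, the secreted glutathione peroxidase, was higher at day 17 in all 3 kinds of cells on array A. The GFP-positive and unsorted samples came from the same experiments as the GFP-negative samples that chose Gpx3, so its tests are not independent of the choice. In GFP-positive cells it had 4277, 3122 and 2287 at day 7 and 9473, 11950 and 8901 at day 17. Neither day overlapped the other, and the difference was 1.67 ± 0.25 (SE, limma adjusted p = 0.00291), a 3.18-fold higher level. In unsorted cells it had 6130, 2748 and 3051 at day 7 and 27170, 23110 and 31630 at day 17, a difference of 2.85 ± 0.29 (SE, limma adjusted p = 8.41e-05). Both calls held in every alternative run, 22 in GFP-positive and 27 in unsorted cells. In GFP-negative cells, which chose Gpx3, it had 4837, 3249 and 3795 at day 7 and 35120, 34310 and 41550 at day 17, a difference of 3.23. The order of the group means was day 17 GFP-negative, day 17 unsorted, day 17 GFP-positive and then the 3 day 7 groups. Each day 17 group was apart from the next in that order, while the day 7 groups overlapped each other.

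Hmox1 had 19950, 14940 and 14860 at day 7 in GFP-positive cells and 2385, 3873 and 15370 at day 17. Exp106 was level with day 7 and the other day 17 samples were below it. The difference was -1.65 ± 0.59 (SE, limma adjusted p = 0.143), and without Exp106 it was -2.42 (adjusted p = 0.000743). In unsorted cells it had 22240, 14800 and 12000 at day 7 and 12150, 11630 and 23620 at day 17, and the difference was -0.08 ± 0.55 (SE, limma adjusted p = 0.936).

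The remaining enzymes did not pass the test of the day in GFP-positive or unsorted cells. Gpx1, the cytosolic glutathione peroxidase, differed by 0.46 ± 0.33 in GFP-positive and 0.17 ± 0.34 in unsorted cells, with the 3 Exp106 samples at 4831, 5072 and 4852 and the other 15 samples between 2066 and 3356. Gpx4, which reduces lipid peroxides in membranes, differed by -0.02 ± 0.23 in GFP-positive and -0.46 ± 0.21 in unsorted cells, where its days were apart (adjusted p = 0.212). Sod1 differed by 0.06 ± 0.21 and -0.29 ± 0.21, Sod2 by 0.01 ± 0.38 and -0.35 ± 0.30, and Sod3 by -0.13 ± 0.55 and 0.70 ± 0.50, in the same order. In all, 2 of 12 probe sets were called in GFP-positive cells, where 4.82% of all probe sets tested were, and 2 of 9 in unsorted cells, where 5.71% were. Both calls in each comparison were Mt1 and Gpx3, the genes chosen by the same change in GFP-negative cells of the same experiments, so the counts are no support for the group, and 0 of the other 7 genes were called. The median difference of the 9 genes was -0.02 in GFP-positive and -0.29 in unsorted cells, against -0.0569 and -0.0937 over all probe sets tested. Without Exp106 the count in GFP-positive cells was 4. The share of 4.82% belongs to the fit with Exp106. Over the alternatives the calls among all probe sets ran from 443 to 2359, against 1066 in that fit, so the rise to 4 is not read as a result about the genes.

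**Figure D2:**
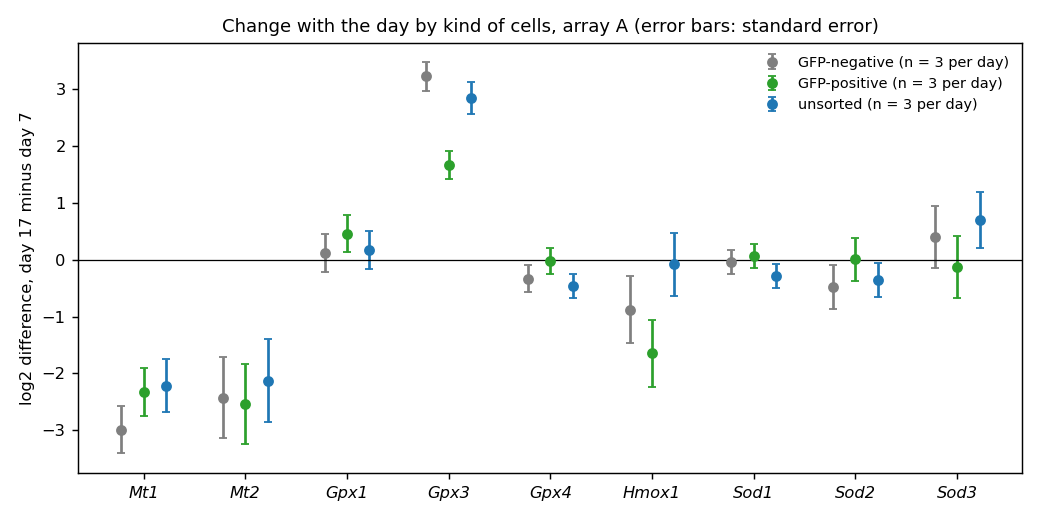
Log2 difference between day 17 and day 7 (vertical axis) of the 9 genes on array A in GFP-negative, GFP-positive and unsorted cells; points are fitted differences and bars their standard error, n = 3 per group and day. Gpx3 lies at 3.23, 1.67 and 2.85 and Mt1 at -2.99, -2.33 and -2.22 in that order; the GFP-negative values chose both genes.

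Sorted fractions were then compared within a day. Between GFP-positive and GFP-negative cells of day 7, 0 of 8 probe sets of the 7 genes tested were called by limma, where 0% of all probe sets tested were (395 at an unadjusted p under 0.05). At day 17 again 0 of 8 were called, where 1.29% of all were, and for the difference of the effects between the days 0 of 8, where 0.222% were. Hmox1 was lower in the GFP-positive sample of each day 17 experiment, with log2 differences of -1.62, -0.57 and -0.26 (Exp100, Exp105, Exp106) and a mean of -0.82 ± 0.59 (SE, limma adjusted p = 0.739). Sod3 had differences of -0.95, -1.07 and -0.60 there, with a mean of -0.88 ± 0.55 (SE, limma adjusted p = 0.672). These SE and p are from a fit of group means without pairing, and do not measure the spread of the listed differences. Neither gene was called in any of 24 alternatives, which included the experiment as a block (lowest limma adjusted p = 0.0753 for Hmox1 and 0.0813 for Sod3).

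Gpx3 and Mt1 are described but not tested between these fractions, since the GFP-negative samples chose them. The Gpx3 difference, GFP-positive minus GFP-negative, was -1.89, -1.52 and -2.22 in Exp100, Exp105 and Exp106, against -0.18, -0.06 and -0.72 in Exp99, Exp101 and Exp103. These are values of array A, where the fractions did not overlap at day 17. The array C probe set of Gpx3 had 0.92, -1.83 and -0.12 in the day 17 experiments and 0.09, 0.75 and 1.59 in those of day 7, in the same order. For Mt1 the day 17 experiments had 0.63, 0.39 and 0.26 and those of day 7 had -0.08, -0.15 and -0.49, while the intensities of the fractions overlapped on both days.

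Against GFP-positive cells, unsorted cells had more Gpx3 at day 17, by 1.43 ± 0.29 (SE, limma adjusted p = 0.00663), and the groups did not overlap. It was the 1 call among 9 probe sets, where 7.62% of all were called, and it was lost in a fit of the compared groups alone (adjusted p = 0.068). Unsorted samples include the GFP-negative cells of the same experiments, so this test is not independent of the choice of Gpx3 either. Hmox1 was 12150, 11630 and 23620 in unsorted cells against 2385, 3873 and 15370 in GFP-positive cells of the same experiments, a difference of 1.51 ± 0.55 (SE, limma adjusted p = 0.114). Without Exp106 it was 1.96 and called (limma adjusted p = 0.000574). Sod3 differed by 1.20 ± 0.50 (adjusted p = 0.168), Sod1 by -0.66 ± 0.21 (adjusted p = 0.0698) and Gpx4 by -0.59 ± 0.21 (adjusted p = 0.106). With the experiment as a block, which pairs samples of the same experiment, 5 probe sets were called: Gpx3 (adjusted p = 0.000222), Hmox1 (0.00109), Sod3 (0.00253), Sod1 (0.0159) and Gpx4 (0.0256), the first 3 higher and the last 2 lower in unsorted cells. With that block and without Exp106, Sod1 and Gpx4 were not called, while Mt1 (0.76, adjusted p = 0.0445) and Mt2 (0.91, adjusted p = 0.0257) were. The share of 7.62% belongs to the fit without the block and with Exp106. Over the alternatives the calls among all probe sets ran from 14 to 1753, against 568 in that fit. Nothing about the group of genes is read from the counts with the block.

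At day 7 unsorted and GFP-positive cells gave 0 calls among 9 probe sets, where 0.0402% of all were called. Unsorted against GFP-negative cells gave 0 of 7 on each day by limma, where 0% of all were called at day 7 (25 at an unadjusted p under 0.05) and 0.0134% at day 17. Gpx3, not tested there, had a log2 difference of -0.44 ± 0.29 (SE), unsorted minus GFP-negative, at day 17. In Exp100, Exp105 and Exp106 the same difference was 0.71, 1.01 and 0.36 for Hmox1 and 0.46, 0.33 and 0.19 for Sod3. For Sod1 it was -0.48, -0.20 and -0.53, and for Gpx4 -0.28, -0.45 and -0.24. For Hmox1, Sod3, Sod1 and Gpx4 the unsorted sample of each day 17 experiment thus lay outside both sorted fractions. None of them was called against GFP-negative cells, and the cause was not tested.

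Macrophage markers also differed between these groups. The summed normalised intensity of 18 markers on array A, 17 of them bright enough to be tested, was 7333 to 8865 in GFP-positive, 16180 to 43030 in GFP-negative and 22320 to 48950 in unsorted samples at day 7. In GFP-positive cells at day 17 it was 25580, 24990 and 99630 in Exp100, Exp105 and Exp106, so that Exp106, where Hmox1 and Mt2 were also highest, stood apart. In GFP-negative cells of that day it was 142500, 92140 and 83010 in the same order. There Exp106 had the lowest sum but the highest Hmox1 and Mt2. In unsorted cells it was 263400, 203400 and 228700, and Exp106, with the middle sum, again had the highest Hmox1 and Mt2. Between unsorted and GFP-positive cells at day 17, 14 of 17 tested markers were called higher, among them Csf1r (2.81 ± 0.50) and Adgre1 (3.51 ± 0.68). With the day 8 of 16 were called higher in GFP-positive cells, where 4.82% of all probe sets were called in either direction. In unsorted cells 12 of 17 were, where 5.71% of all were called. In GFP-negative cells 0 of 16 were called (12 at an unadjusted p under 0.05 by limma, against 13 for GFP-positive cells). The share of all probe sets is not given there. Yet all 16 markers were above 0 with the day in each sorted fraction. The median log2 difference was 2.13 for GFP-positive and 1.79 for GFP-negative cells, so the count of 0 is not read as a lack of change. Between the sorted fractions 0 of 16 were called by limma on each day (10 at day 7 and 11 at day 17 at an unadjusted p under 0.05), and 1 of 17 was called between unsorted and GFP-positive cells at day 7. Unsorted against GFP-negative cells gave 0 of 17 on each day by limma (0 and 7 at an unadjusted p under 0.05). Fibroblast and smooth muscle markers also differed between the kinds of cells at day 17. The sum of 7 fibroblast markers was 158300 to 213400 in GFP-negative, 124800 to 176700 in unsorted and 96930 to 125300 in GFP-positive samples. Of the 7, 3 were called higher in unsorted than in GFP-positive cells, among them Sfrp2 (3.42 ± 0.42) and Mgp (2.21 ± 0.24). Dcn (-0.05 ± 0.24) and Lum (0.26 ± 0.19) were among those not called. With the day in GFP-positive cells, where Gpx3 was higher at day 17 on array A, 3 of 8 fibroblast markers were called lower and 0 higher. Gpx3 was also higher at day 17 in the other kinds of cells, and there the markers went the other way. In GFP-negative cells 3 of 8 were called higher and 0 lower, and in unsorted cells 2 of 7 higher and 0 lower. The median log2 difference was -1.25 in GFP-positive, 0.904 in GFP-negative and 0.33 in unsorted cells. Of 4 smooth muscle markers tested, 4 were called higher in unsorted than in GFP-positive cells at day 17, and 4 lower with the day in GFP-positive cells. Lpl (2.12 ± 0.39) and Matn4 (2.63 ± 0.38), the only adipocyte and the only chondrocyte marker tested between unsorted and GFP-positive cells at day 17, were also called higher in unsorted cells. The part of these markers in the differences of Gpx3, Hmox1 and Sod3 was not tested. Immediate early and heat shock genes known to respond to dissociation summed to 9890 to 17620 in unsorted, 13240 to 22620 in GFP-positive and 12230 to 21910 in GFP-negative samples at day 17. Of 8 tested, Fos was called lower in unsorted than in GFP-positive cells at day 17 (-1.96 ± 0.55, limma adjusted p = 0.0386), and with the day in unsorted cells Atf3 was called higher (1.07 ± 0.30) and Ier2 lower (-0.96 ± 0.26).

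**Figure D3:**
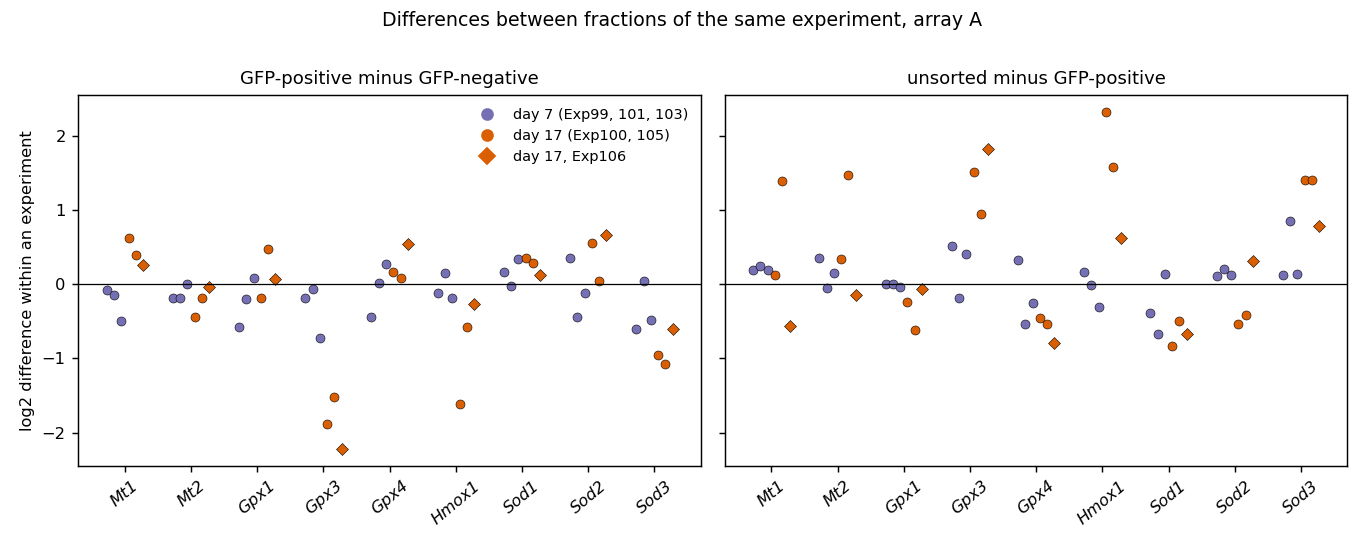
Log2 difference between fractions of the same experiment (vertical axis) for the 9 genes on array A, GFP-positive minus GFP-negative on the left and unsorted minus GFP-positive on the right; each point is 1 experiment and diamonds are Exp106. The 3 day 17 points of Gpx3 lie at -1.89, -1.52 and -2.22 on the left and at 1.52, 0.95 and 1.83 on the right.

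The probe sets of 1 gene did not always move together. For Mt1 the array B probe set had 12770, 11880 and 12020 at day 7 and 11990, 12570 and 34370 at day 17 in GFP-positive cells, a difference of 0.50 ± 0.43 (SE, limma adjusted p = 0.568), where the array A probe set was called lower. Over the 12 sorted samples the log2 values of the Mt1 probe sets correlated at r = -0.064, and at 0.53 without Exp106 (n = 10), whose array B values were 25660 and 34370 against 9087 to 12770 elsewhere. The fall of Mt1 thus rests on the array A probe set. For Gpx3 the array C probe set differed by -0.12 ± 0.48 (SE, limma adjusted p = 0.918) in GFP-positive cells, against 1.67 on array A, and the correlation was 0.33. In GFP-negative cells, which chose Gpx3, the array C difference was 1.03 with the days apart, against 3.23 on array A. Intensities of the array C probe set ran from 549 to 2482, and 9 of 12 were above the array median. Sod1 on arrays A and C correlated at 0.62, and at 0.91 without Exp106, and 3 of the array C values were 55190. The probe sets that were not tested correlated with array A at 0.62 (Hmox1), -0.21 (Sod1) and -0.12 (Sod2). These correlations describe samples that share days and experiments. Why the probe sets differ was not tested.

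**Figure D4:**
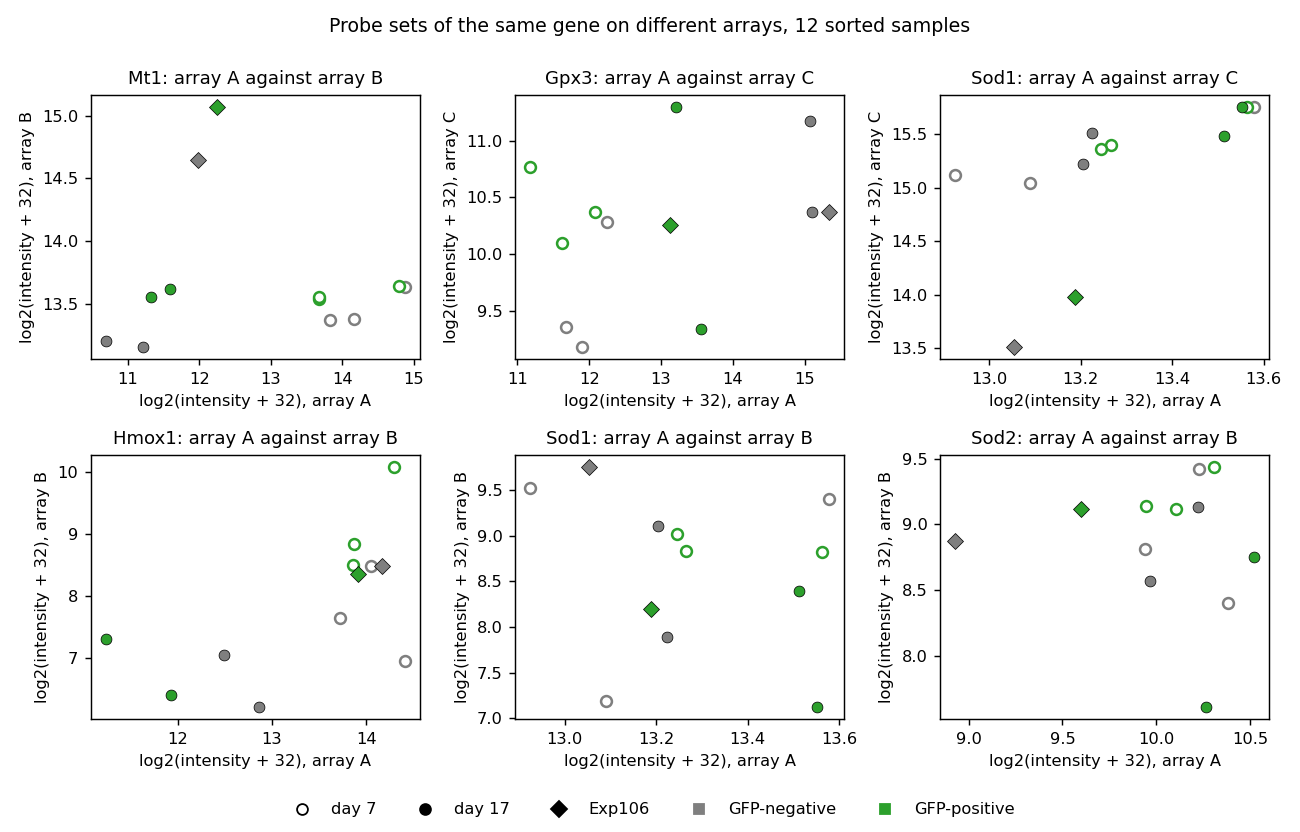
Log2(intensity + 32) on array A (horizontal axis) against that of another probe set of the same gene on array B or C (vertical axis) in the 12 sorted samples; open points are day 7, filled points day 17, diamonds Exp106, grey GFP-negative and green GFP-positive. Sod1 on arrays A and C has r = 0.62 and Mt1 on arrays A and B has r = -0.064.

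Other genes of redox and zinc handling were set beside these, from a list of 69 genes of which 61 were on the arrays. In GFP-positive cells 2 of 50 tested were called higher at day 17, Mgst3, a microsomal glutathione S-transferase (2.24 ± 0.41), and Slc39a13, a zinc transporter (1.46 ± 0.27), and 2 lower, Gsto1, a glutathione S-transferase of the omega class (-2.26 ± 0.25), and Nfe2l2, which encodes NRF2 (-0.96 ± 0.21). In unsorted cells 0 of 42 were called higher and 4 lower, with the largest falls in Nqo1, a quinone reductase (-1.74 ± 0.44), and Slc39a6, a zinc transporter (-1.20 ± 0.30). Between unsorted and GFP-positive cells at day 17, 5 of 42 were called higher, among them Mgst1 (2.05 ± 0.45) and Fth1, the ferritin heavy chain that stores iron (1.59 ± 0.25), and 1 lower, Slc30a4, a zinc exporter (-0.98 ± 0.24). The median of the list was -0.0961, 0.0193 and 0.126 in these 3 comparisons, against -0.0569, -0.0937 and -0.0525 over all probe sets tested. The shares called, 4 of 50, 4 of 42 and 6 of 42, stand beside 4.82%, 5.71% and 7.62% of all probe sets, and nothing particular to the list is read from them. In the other comparisons 0 of the list were called by limma, with 0 to 12 at an unadjusted p under 0.05.

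The genes with patterns most like those of 3 members were found by Pearson's r of log2 values over the 18 array A samples, among 5630 genes. For Mt1 they were Lonp1 (r = 0.96), Hspa9 (0.95), Scarb2 (0.92) and Crabp2 (0.92). For Gpx3 they were Serping1 (0.94), Dio2 (0.93), Mfap2 (0.92) and Hfe (0.91). For Hmox1 they were Mroh1 (0.97), Flcn (0.95), Renbp (0.93) and Cebpb (0.93). Without Exp106 (n = 15) these 12 values were between 0.9 and 0.97. Between members, Hmox1 had r = 0.63 with Mt1 and 0.82 with Mt2, and 0.83 and 0.86 without Exp106. These values are descriptions over samples that share days and experiments.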

How the data were processed

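The deposited values were intensities, 1 per probe set and array, whole numbers of at least 10. Their summarisation and scaling from probes are not given in the sources used here. Trimmed means differed between arrays (1069 to 1766 on array A), so intensities were quantile-normalised within array type on log2(intensity + 32), over 18 samples on A and 12 sorted samples on B and C. Unsorted RNA of Exp106 on B and C entered no fit. The limma fit (version 3.58.1, R 4.3.3) had a mean per group and moderated variances with a trend. It used the 12 sorted samples with the 3 array types joined, or the 18 samples on A. The text names every probe set with exactly 1 member gene, the 2 largest changes per direction of the redox list, and the 4 genes most like Mt1, Gpx3 and Hmox1. The members and lists were chosen with earlier results of these data known. Titles share experiment names, which were taken as pairs. As a check, deviations of the sorted fractions of an experiment from their group means correlated at 0.11 to 0.59 on array A, 0.05 to 0.44 on B and 0.0035 to 0.35 on C. The titles are thus the basis for pairing. Alternatives were other pseudocounts (8 and 128), filters, values as deposited, no variance trend, only the groups compared, a fixed or random block (statmod 1.5.0), Exp106 left out and each sample left out. Moderation within each array type and wider promoter windows were added after the data had been seen. Scripts were first tested on simulated data.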

Additional observations from a re-analysis of the deposited data

Results flagged for a closer look

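The sign of the Mt1 difference between sorted fractions on array A was not the same on the 2 days. GFP-positive minus GFP-negative was -0.08, -0.15 and -0.49 in the 3 day 7 experiments and 0.63, 0.39 and 0.26 in the 3 day 17 experiments, so that every experiment of a day lay on the same side of 0, and the difference of the means was 0.67 ± 0.59 (SE). It was not tested, since Mt1 was chosen by the GFP-negative samples. The array B probe set of Mt1 was above 0 in each of the 6 experiments.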

How the results depend on the processing

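Without Exp106, and without its GFP-positive sample alone, the count of called probe sets with the day in GFP-positive cells rose from 2 to 4, by Mt2 and Hmox1, and over single samples left out it ran from 2 to 4. In unsorted cells it was 1 in a fit of only the groups compared, and ran from 1 to 3 over samples left out. Between unsorted and GFP-positive cells at day 17 the count of 1 became 0 in a fit of only the groups compared, 5 with the replicate block, 5 with the random replicate block, 2 without Exp106 and 5 without Exp106 with the block, and ran from 1 to 4 over samples left out. The fixed block changed no other count, and the random replicate block gave 3 with the day in GFP-positive and in unsorted cells. Calls over all probe sets also changed between settings, and nothing about the genes is read from the changes of these counts. For Sod2 at day 17, unsorted minus GFP-positive turned from -0.21 to 0.20 on values as deposited, and unsorted minus GFP-negative from 0.21 to -0.17 without Exp106, to -0.17 without Exp106 with the block and to -0.18 to 0.47 over single samples left out; the cause was not tested. Over all probe sets the calls ran from 443 to 2359 with the day in GFP-positive cells (1066 in the fit reported), from 144 to 930 in unsorted cells (426), from 24 to 1021 between sorted fractions at day 17 (285), from 0 to 234 for the difference of the effects (49), from 0 to 29 between unsorted and GFP-positive cells at day 7 (3), from 14 to 1753 at day 17 (568), from 0 to 4 between sorted fractions at day 7 (0) and from 0 to 46 between unsorted and GFP-negative cells at day 17 (1). Of 2657 alternative values of single probe sets 2554 did not have the opposite sign, and 57 differences kept their sign throughout while 48 did not. With 3 samples a group the number of arrays limits the precision, and probe sets near the array median have little signal over background. The count of metal response element matches in Mt1 was 1 in 250 bases and 3 in the 280 or 300 bases chosen after seeing the data.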
